A study of Mus musculus with 4 samples.

Results

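Immunoglobulin heavy chain variable (Ighv) segments are the gene pieces from which a B cell builds the antigen-facing end of its antibody heavy chain. They were taken as every gene whose symbol starts with Ighv, which gave 185 of the 32285 genes counted. All 185 lie on mouse chromosome 12, 183 of them on the minus strand, and the GENCODE annotation of GRCm38 classes 113 as functional variable genes, 70 as variable pseudogenes and 2 as other variable genes. Their counts were read in gated B cells, which were cells with at least 1 unique molecular identifier (UMI, a tag that marks one captured RNA molecule) of Cd79a or Ms4a1 and none of Cd3e. The gate held 2157 cells out of 34755 deposited barcodes, made up of 708 in placebo 1, 176 in placebo 2, 924 in tamoxifen 1 and 349 in tamoxifen 2. The libraries came from whole lungs of 4 female FVB/NJ mice, 13 weeks old, all carrying the MMTV-PyMT transgene, in which a mouse mammary tumour virus promoter drives the polyoma middle tumour antigen and mammary tumours form. At 8 weeks of age 2 mice received a tamoxifen pellet of 5 mg releasing over 60 days and 2 a placebo pellet, both worn for 5 weeks. Tamoxifen is a selective oestrogen receptor modulator. The cells were profiled with the 10x Genomics 5' assay, which reads RNA from its 5' end, where the variable segment of an antibody transcript lies.

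During B cell development the RAG recombinase joins 1 Ighv segment to a D and a J segment, and a mature B cell as a rule expresses the heavy chain of a single rearranged allele. The segment that a B cell uses is therefore a mark of that cell and its progeny, and antibody-secreting cells carry far more of this transcript than resting B cells. Segments are grouped into families by sequence likeness, here by the number before the hyphen in the symbol. Families Ighv2 and Ighv5 lie nearest to the D and J segments, and the large Ighv1 family (also called J558) lies farthest away. Ighv11 and Ighv12 are known for antibodies of B-1 cells, an innate-like B cell type, which pair them with particular kappa light chains to bind phosphatidylcholine.

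The reference sequences of 6 segments on which the results below turn are printed first, 5' to 3' on the minus strand, as annotated in GENCODE M21 on GRCm38. Ighv3-2 (chr12:114033803-114034233) and Ighv3-1 (chr12:113964388-113964818) are shown because their counts appeared together in the same cells, and capitals mark the bases at which they differ. The bases before base 61, counted from the start codon, are the same in both and are left out, so the letters run to base 349 in Ighv3-2 and base 350 in Ighv3-1. The differences include 1 base that Ighv3-2 lacks, and Ighv3-2 is annotated as a pseudogene.
Ighv3-2: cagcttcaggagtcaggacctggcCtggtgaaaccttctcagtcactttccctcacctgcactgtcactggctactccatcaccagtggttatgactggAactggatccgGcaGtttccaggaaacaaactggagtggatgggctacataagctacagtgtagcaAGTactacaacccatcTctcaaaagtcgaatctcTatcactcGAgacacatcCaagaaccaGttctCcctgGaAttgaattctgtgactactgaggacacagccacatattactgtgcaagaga
Ighv3-1: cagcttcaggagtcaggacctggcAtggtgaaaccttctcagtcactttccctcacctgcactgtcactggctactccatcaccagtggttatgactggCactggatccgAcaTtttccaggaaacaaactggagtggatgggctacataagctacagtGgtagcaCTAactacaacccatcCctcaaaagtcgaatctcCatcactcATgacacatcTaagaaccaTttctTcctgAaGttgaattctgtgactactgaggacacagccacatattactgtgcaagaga
Over 349 aligned bases they were 95.4% identical. Ighv1-14 (chr12:114646572-114647056) and Ighv1-83 (chr12:115963817-115964250) are shown because 1 tamoxifen cell held most counts of both, and both are annotated as pseudogenes. Bases 1 to 120 of each transcript are given, with the first in-frame stop codon in capitals, which is codon 5 in Ighv1-14 and codon 20 in Ighv1-83.
Ighv1-14: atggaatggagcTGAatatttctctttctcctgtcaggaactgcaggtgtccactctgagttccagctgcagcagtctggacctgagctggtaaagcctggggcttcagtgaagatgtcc
Ighv1-83: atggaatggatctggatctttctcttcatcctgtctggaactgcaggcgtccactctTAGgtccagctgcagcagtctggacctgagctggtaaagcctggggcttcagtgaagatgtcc
Ighv11-2 (chr12:114048241-114048812) and Ighv12-3 (chr12:114366521-114366954) are shown because they are the B-1 segments of the background above. The last 150 bases of each are given, from base 204 to base 353. Capitals mark the last in-frame TGT, a cysteine codon near the end of the segment, just before the junction with D and J.
Ighv11-2: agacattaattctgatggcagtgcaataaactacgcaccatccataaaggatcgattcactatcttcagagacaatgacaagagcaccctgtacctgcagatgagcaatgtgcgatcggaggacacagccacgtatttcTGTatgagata
Ighv12-3: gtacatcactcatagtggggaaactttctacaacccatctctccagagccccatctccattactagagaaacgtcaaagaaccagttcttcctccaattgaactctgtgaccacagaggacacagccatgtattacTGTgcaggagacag
The mice were FVB/NJ, whereas the GRCm38 reference is C57BL/6J sequence, so these letters are those of the reference and not of the alleles in these animals.

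The libraries held 32646505 to 37285982 UMIs each and 6676 to 7480 cells after filters and removal of 81 to 160 likely doublets per library. Pairs of libraries shared 601 barcodes in all, 1 of them among gated cells. Cd79b, a B cell receptor gene that the gate did not use, was found in 80.7 to 90.6% of gated cells, and Pax5, a B cell transcription factor, in 30.4 to 36.9%. Of 5 precursor genes, Rag2, Dntt and Igll1 had no UMI in gated cells of any mouse, Rag1 had one in 0, 1, 2 and 3 cells of placebo 1, placebo 2, tamoxifen 1 and tamoxifen 2, and Vpreb1 in 1, 1, 3 and 1. Nothing in the labels says whether the 2 mice of a group shared a cage or litter, or whether the libraries were made together. The smallest two-sided p that an exact permutation test of 2 against 2 mice can give is 0.333.

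Ighv counts sat almost wholly in the gated cells. Ighv genes had 10529 UMIs in the gated cells of placebo 1, 1836 in placebo 2, 20890 in tamoxifen 1 and 9741 in tamoxifen 2, which were 86.6%, 94.9%, 94.5% and 98.0% of all Ighv UMIs of the library. At least 1 Ighv UMI was found in 81.9% of gated cells in placebo 1 (580 cells, exact 95% binomial interval 78.9 to 84.7%), 81.3% in placebo 2 (143 cells, 74.7 to 86.7%), 90.2% in tamoxifen 1 (833 cells, 88.0 to 92.0%) and 88.8% in tamoxifen 2 (310 cells, 85.0 to 91.9%). The intervals cover counting error only. Among T cells, taken as cells with Cd3e and neither Cd79a nor Ms4a1, the share was 0.395 to 0.877%, and among neutrophil-range cells, taken as cells with at least 10 UMIs of S100a8 and none of those 3 genes, 0.220 to 0.930%. Median depth was 2508.5 to 3869 UMIs in gated cells, 2752 to 3970 in T cells and 2443 to 4192 in neutrophil-range cells.

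The share of gated cells with an Ighv UMI was 81.6% ± 0.474 (SD, n = 2) under placebo and 89.5% ± 0.938 (SD, n = 2) under tamoxifen. Both tamoxifen mice lay above both placebo mice, with an exact two-sided permutation p of 0.333. With every cell thinned to 1000 UMIs, leaving out 58, 19, 41 and 7 shallower cells in placebo 1, placebo 2, tamoxifen 1 and tamoxifen 2, the shares were 69.8%, 71.3%, 74.7% and 72.8%. Some other B cell genes were also more often found in the tamoxifen mice. Ms4a1, a gene of the gate, was found in 75.8% and 76.7% of gated placebo cells against 87.0% and 85.4% of gated tamoxifen cells, and Cd79b in 87.3% and 80.7% against 90.6% and 90.3%. Pax5 overlapped between the groups, at 30.4% and 35.8% against 36.9% and 34.4%. Where the gate asked for both Cd79a and Ms4a1, the shares with an Ighv UMI were 90.9%, 95.5%, 94.6% and 94.9% and the groups overlapped (exact two-sided permutation p = 1). The summed level of all 4 neutrophil markers in gated cells was 3010 and 18634 CPM (counts scaled to a common total) under placebo and 2764 and 3842 under tamoxifen, and that of 3 epithelial markers was 14897 and 343.0 against 2999 and 953.4. For 4 erythroid markers it was 20318 and 4418 against 4294 and 13952, and for 4 macrophage markers 1025 and 377.8 against 1015 and 296.3, with Marco at 0 in the second mouse of each group. The part of other cell types in the gate in this difference was not tested.

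A few cells held most of the Ighv counts in 3 of the 4 mice. The richest cell held 3029 Ighv UMIs in placebo 1, 100 in placebo 2, 4341 in tamoxifen 1 and 3008 in tamoxifen 2, or 28.8%, 5.45%, 20.8% and 30.9% of the gated Ighv UMIs of the mouse. It took 3 cells to reach 50% of the Ighv UMIs in placebo 1 and in tamoxifen 2, 4 cells in tamoxifen 1 and 24 cells in placebo 2. The 10 richest cells held 64.7%, 29.4%, 64.3% and 70.0%, a mean of 47.0% ± 25.003 (SD, n = 2) under placebo and 67.1% ± 4.01 (SD, n = 2) under tamoxifen. Placebo 1 lay beside the tamoxifen mice and placebo 2 apart from all 3, so the groups overlapped (exact two-sided permutation p = 0.667). Most positive cells were far lower, with a median of 5, 9, 7 and 7 Ighv UMIs per positive cell, and 1347 of the 1866 positive cells had 1 to 10.

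**Figure D1:**
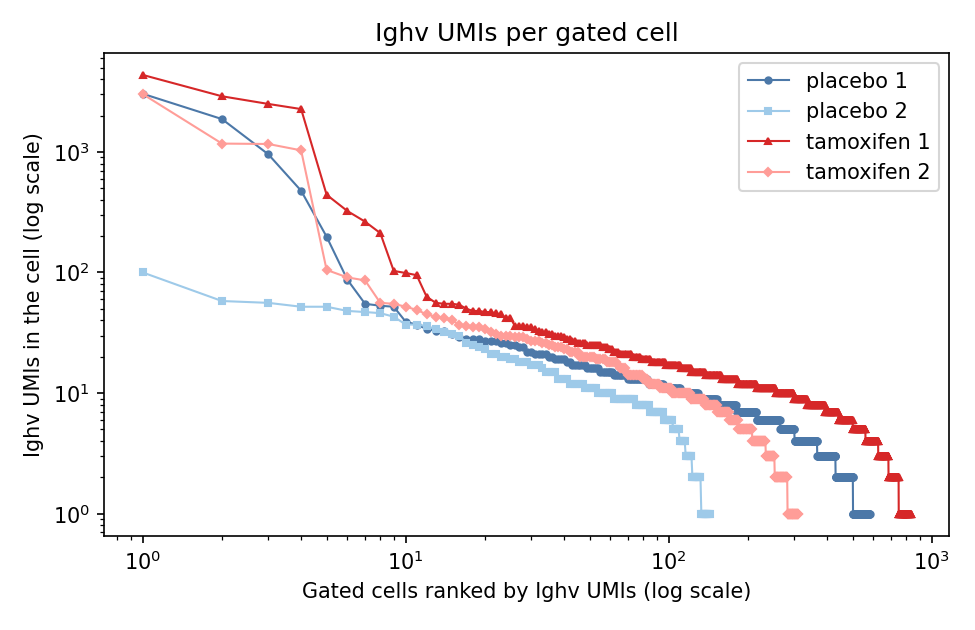
Ighv UMIs in each gated cell with at least 1 (vertical, log scale) against the rank of the cell within its mouse (horizontal, log scale), 1 line per mouse. Placebo 1, tamoxifen 1 and tamoxifen 2 start between 3008 and 4341 UMIs and drop steeply within their first few cells, whereas placebo 2 starts at 100.

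The richest cells carried antibody-secreting genes. A secreting range was set without Ighv counts, as gated cells with a UMI of Jchain, which links secreted IgA and IgM, and of at least 2 of Mzb1, Xbp1, Sdc1, Prdm1 and Tnfrsf17, genes of plasma cells. It held 7 cells in placebo 1, none of 176 in placebo 2, 8 in tamoxifen 1 and 4 in tamoxifen 2. A count of 0 of 176 cells allows a share of up to 1.70% of cells with these UMIs, taken as 3 counts and covering counting error only. In placebo 2 Jchain and Tnfrsf17 were at 0 in all gated cells, as was Igha. Just outside the range were gated cells with Jchain and 1 of the 5 other genes, which numbered 1, 0, 2 and 5 in the same order and held at most 86 Ighv UMIs. Gated cells without Jchain but with at least 2 of the 5 genes were far more frequent, at 74, 33, 170 and 85, so the range rests mainly on Jchain. Over all gated cells outside the range the highest Ighv count was 87, 100, 212 and 105 UMIs. Together the 19 cells inside it were 0.881% of gated cells and held 60.5% of the gated Ighv UMIs, with a lowest value of 2, a median of 1029 and a highest of 4341 per cell. The range is not a cell type. A placebo 1 cell with 2 Ighv UMIs and a tamoxifen 1 cell with 99 entered it on 1 Jchain UMI each, with 6 and 33 UMIs of Ms4a1. A placebo 1 cell with 198 Ighv UMIs had 6 of Jchain, 32 of Ms4a1 and 116 of Cd79a. These cells are counted in what follows. Their share of Ighv UMIs was 62.1% in placebo 1, 62.8% in tamoxifen 1 and 65.4% in tamoxifen 2. The constant gene with most UMIs was Igha in 9 of them, Ighm in 8, Ighg1 in 1 and Ighg2b in 1, and a kappa variable gene led the light chain in 18.

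The Ighv share of all gated UMIs was 0.457% in placebo 1, 0.188% in placebo 2, 0.512% in tamoxifen 1 and 0.538% in tamoxifen 2. The means were 0.322% ± 0.190 (SD, n = 2) under placebo and 0.525% ± 0.0189 (SD, n = 2) under tamoxifen, without overlap (exact two-sided permutation p = 0.333). Without the secreting range the 4 values came together, at 0.181%, 0.188%, 0.199% and 0.196%. The tamoxifen mice were still the higher pair, by 0.0128 percentage points in place of 0.203. With all gated cells the difference was 0.0685 percentage points without placebo 2 and 0.337 without placebo 1.

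The cells of the secreting range used many segments. In all 19 a single family held at least 90% of the cell's Ighv UMIs, and 16 different genes led the 19 cells. The richest placebo 1 cell had 2929 of its 3029 Ighv UMIs on Ighv1-66, with Ighm and the light chain gene Igkv6-17. The next had 1861 of 1870 on Ighv5-6, with Igha and Igkv2-109. In tamoxifen 2 the cells ranked 3 and 4 had 1155 of 1162 on Ighv2-6-8 and 1025 of 1029 on Ighv1-9, both with Igha. These 4 cells were chosen as examples of a dominant lead gene. The lead gene held at least 80% of the Ighv UMIs in 10 of the 19 cells, and in the third placebo 1 cell Ighv1-74 held 490 and Ighv1-64 227 of 955.

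A heavy and light lead gene recurred together in 2 secreting cells on 2 occasions, both in tamoxifen 1. A pair of Ighm cells carried Ighv2-6 with Igkv6-23, at 2889 and 2263 Ighv UMIs, all of them on Ighv2-6. A further barcode of that mouse, under the cell filters with 1086 UMIs in all, held 296 UMIs of Ighv2-6 and Igkv6-23 as its lead light gene. A pair of Igha cells carried Ighv9-3 with Igkv19-93, at 323 and 264 Ighv UMIs. The joined V, D and J sequence was not read here, so it was not tested whether the cells of a pair share a rearrangement.

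Segment use was then counted by cells, so that a secreting cell weighs no more than any other. A gated cell was assigned to an Ighv gene when it had at least 2 Ighv UMIs and at least 80% of them on that gene. This placed 260 cells in placebo 1, 75 in placebo 2, 398 in tamoxifen 1 and 152 in tamoxifen 2, or 51.9 to 56.8% of cells with 2 or more Ighv UMIs. By family the same rule placed 92.0 to 95.04%. Of the 185 genes, 128 had a UMI in gated cells, 70 of them in all 4 mice, and 85 had an assigned cell, 31 of them in all 4 mice. The 57 genes without a UMI comprised 45 pseudogenes, 10 genes annotated as functional and the 2 other variable genes.

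No segment dominated by cells. The most used gene was Ighv2-2 in placebo 1 with 15 cells (5.77% of assigned cells), Ighv2-9 in placebo 2 with 5 cells (6.67%, level with Ighv1-9 and the annotated pseudogene Ighv4-2), Ighv1-66 in tamoxifen 1 with 26 cells (6.53%) and Ighv2-2 in tamoxifen 2 with 14 cells (9.21%). Over the 4 mice the 10 genes with most assigned cells were Ighv1-66 with 50, Ighv2-2 with 49, Ighv8-8 with 40, Ighv3-2 with 38, Ighv9-3 with 33, Ighv1-9, Ighv2-9 and Ighv8-12 with 32 each, Ighv5-17 with 28 and Ighv2-6 with 25. Ighv1-66 took 4.23%, 5.33%, 6.53% and 5.92% of assigned cells in placebo 1, placebo 2, tamoxifen 1 and tamoxifen 2. Ighv2-2 took 5.77%, 2.67%, 4.52% and 9.21%. Ighv8-8 took 5.00%, 2.67%, 5.03% and 3.29%. The tamoxifen mice were both higher for Ighv1-66, and the groups overlapped for Ighv2-2 and Ighv8-8.

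**Figure D2:**
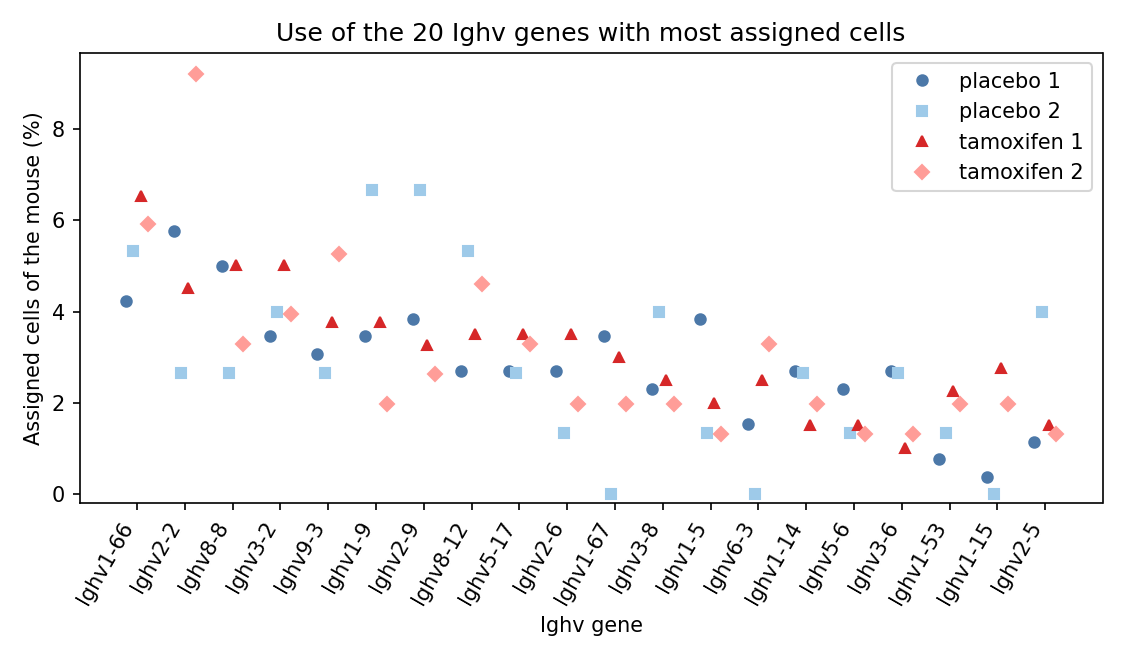
Share of a mouse's assigned cells (vertical, percent) that used each of the 20 Ighv genes with most assigned cells (horizontal), 1 point per mouse. No gene takes more than 9.21% in any mouse, and the order of the mice differs from gene to gene.

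At an equal number of 75 assigned cells the expected number of different Ighv genes was 40.8 in placebo 1, 38.0 in placebo 2, 38.9 in tamoxifen 1 and 40.5 in tamoxifen 2. The means of 39.4 ± 1.98 (SD, n = 2) and 39.7 ± 1.09 (SD, n = 2) differed by less than the spread between mice (exact two-sided permutation p = 1). Across the 85 genes with an assigned cell, Pearson's r of assigned cells between pairs of mice was 0.49 to 0.82, whereas Pearson's r of their UMIs was 0.02 to 0.44. Spearman's rho of assigned cells was 0.50 to 0.72. These are correlations across genes of the same locus, which are not independent replicates, and the 3 pairs with placebo 2, the mouse with fewest assigned cells, gave the lowest rho. Between the 2 placebo mice rho was 0.52, between the 2 tamoxifen mice 0.72, and across groups 0.50 to 0.63.

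By family, Ighv1 took 40.4%, 37.3%, 41.0% and 36.2% of assigned cells in placebo 1, placebo 2, tamoxifen 1 and tamoxifen 2. The means were 38.9% ± 2.16 (SD, n = 2) and 38.6% ± 3.37 (SD, n = 2), and the groups overlapped (exact two-sided permutation p = 1). Ighv2 and Ighv5 together, the families nearest to D and J, took 26.5%, 21.3%, 23.4% and 25%, with means of 23.9% ± 3.68 (SD, n = 2) and 24.2% ± 1.15 (SD, n = 2) and p = 1 by the same exact test. Ighv3, Ighv8 and Ighv9 took 7.24 to 10.7%, 7.89 to 9.30% and 4.00 to 6.58%. These shares leave out cells in which no single gene held 80% of the Ighv UMIs. With cells assigned by family, Ighv1 took 40.1%, 46.4%, 44.2% and 38.1% in the same order of mice. Ighv2 and Ighv5 together then took 22.3%, 19.2%, 19.1% and 22.4%, and the groups overlapped in both. Ighv2 alone was lower this way in all 4 mice, at 10.4 to 12.3% against 14.7 to 18.4%. By cells assigned to a gene, the groups did not overlap in 4 of the 16 families, and overlapped or were both at 0 in the others. For comparison, the groups did not overlap in 36.8% of all genes by summed UMIs. The 4 families were Ighv6, Ighv7, Ighv13 and Ighv14. Ighv6 took 1.92%, 0%, 3.52% and 4.61% of assigned cells in placebo 1, placebo 2, tamoxifen 1 and tamoxifen 2, Ighv7 took 1.54%, 0%, 2.26% and 4.61%, and Ighv13 took 0%, 0%, 0.503% and 0.658%, all higher under tamoxifen. Ighv14 took 4.23%, 2.67%, 2.01% and 1.97% and was lower under tamoxifen. These differences were not tested. The 0% values of placebo 2 were read on 75 assigned cells, and Ighv13 had 3 assigned cells over the 4 mice. By UMIs the groups overlapped in Ighv6 and Ighv7, and did not in Ighv13 and Ighv14. Nor did they by UMIs in Ighv2, Ighv5, Ighv8, Ighv9, Ighv11 and Ighv12. Of these families Ighv2, Ighv9 and Ighv13 were higher by UMIs under tamoxifen, and Ighv5, Ighv8, Ighv11, Ighv12 and Ighv14 lower. The differences by UMIs were not tested by family either. By UMIs Ighv2, Ighv3 and Ighv5 spread far more between mice, with Ighv2 at 5.92%, 14.8%, 30.6% and 17.7%, Ighv3 at 4.76%, 14.8%, 27.4% and 4.99%, and Ighv5 at 21.8%, 10.5%, 3.64% and 4.79%. At the highest of these values 1 gene made up most of the family, with 5392 of 6396 Ighv2 UMIs on Ighv2-6 and 3806 of 5715 Ighv3 UMIs on Ighv3-2 in tamoxifen 1, and 1920 of 2300 Ighv5 UMIs on Ighv5-6 in placebo 1.

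**Figure D3:**
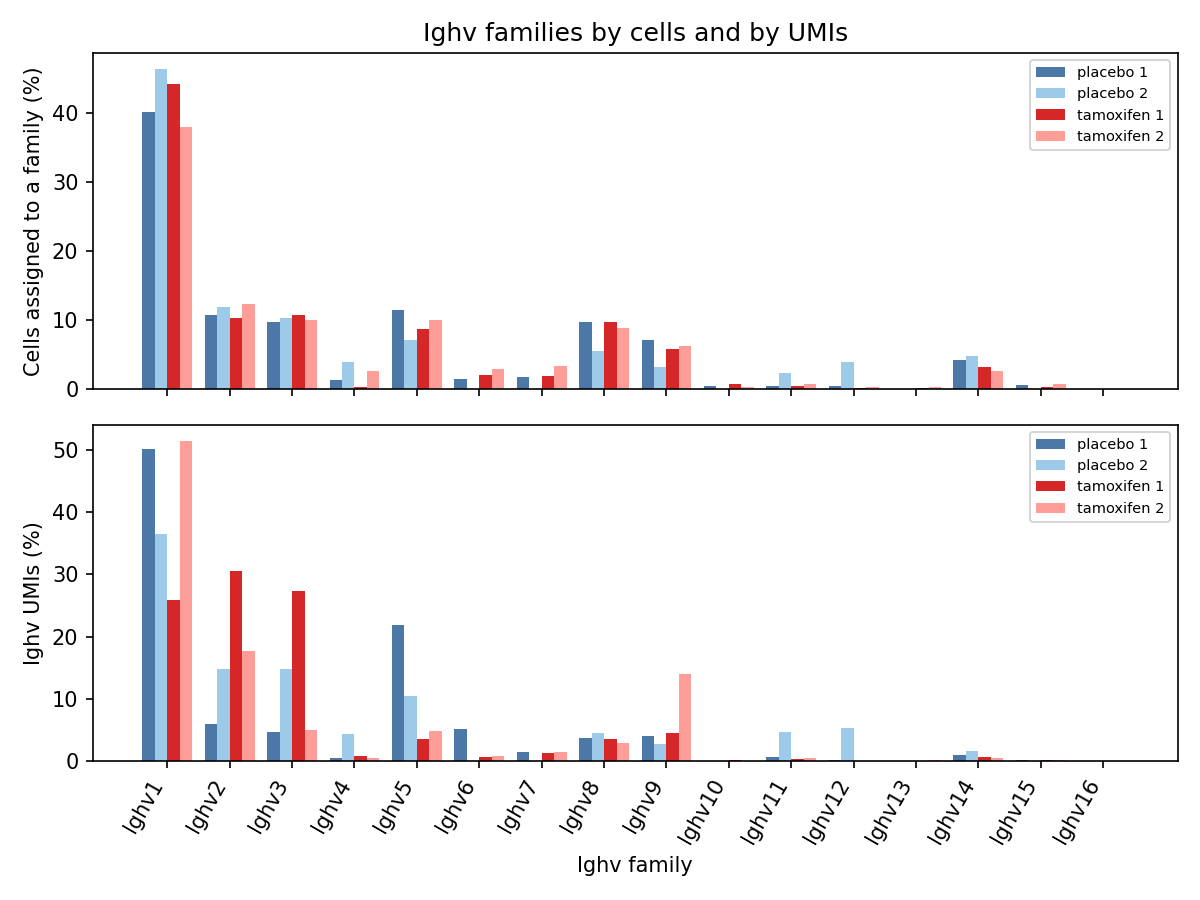
Share of each Ighv family (horizontal) among gated cells assigned to a family (upper panel, percent of such cells) and among Ighv UMIs of gated cells (lower panel, percent), 1 bar per mouse. Ighv2 and Ighv3 stay close between mice by cells and spread by UMIs, where Ighv2 reaches 30.6% in tamoxifen 1 against 5.92% in placebo 1.

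The segments with most UMIs show where the counts sat. Ighv2-6 led with 5644 UMIs, of which 146 were in placebo 1, 60 in placebo 2, 5392 in tamoxifen 1 and 46 in tamoxifen 2, and 3 cells held 92.2% of the total. Ighv3-2 had 241, 145, 3806 and 319, with 1 cell of tamoxifen 1 holding 71.4% of the total of 4511. Ighv1-66 had 3035, 84, 315 and 95, with 1 cell of placebo 1 holding 83.0%. In each of these genes 1 mouse was high, and 1 to 3 of its cells held most of the gene's UMIs. Ighv1-14 had 62, 70, 81 and 2043 UMIs, with 1 cell of tamoxifen 2 holding 87.0%. Ighv5-6 had 1920, 28, 124 and 95, with 1 cell of placebo 1 holding 85.9%. Ighv1-64 had 274, 15, 1263 and 56, with 1 cell of tamoxifen 1 holding 74.9%. Here too the highest mouse is the one with the richest cell, and the other 3 mice lie at 15 to 274 UMIs. The 274 UMIs of Ighv1-64 in placebo 1 also sat mostly in 1 cell, which held 227 of them.

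**Figure D4:**
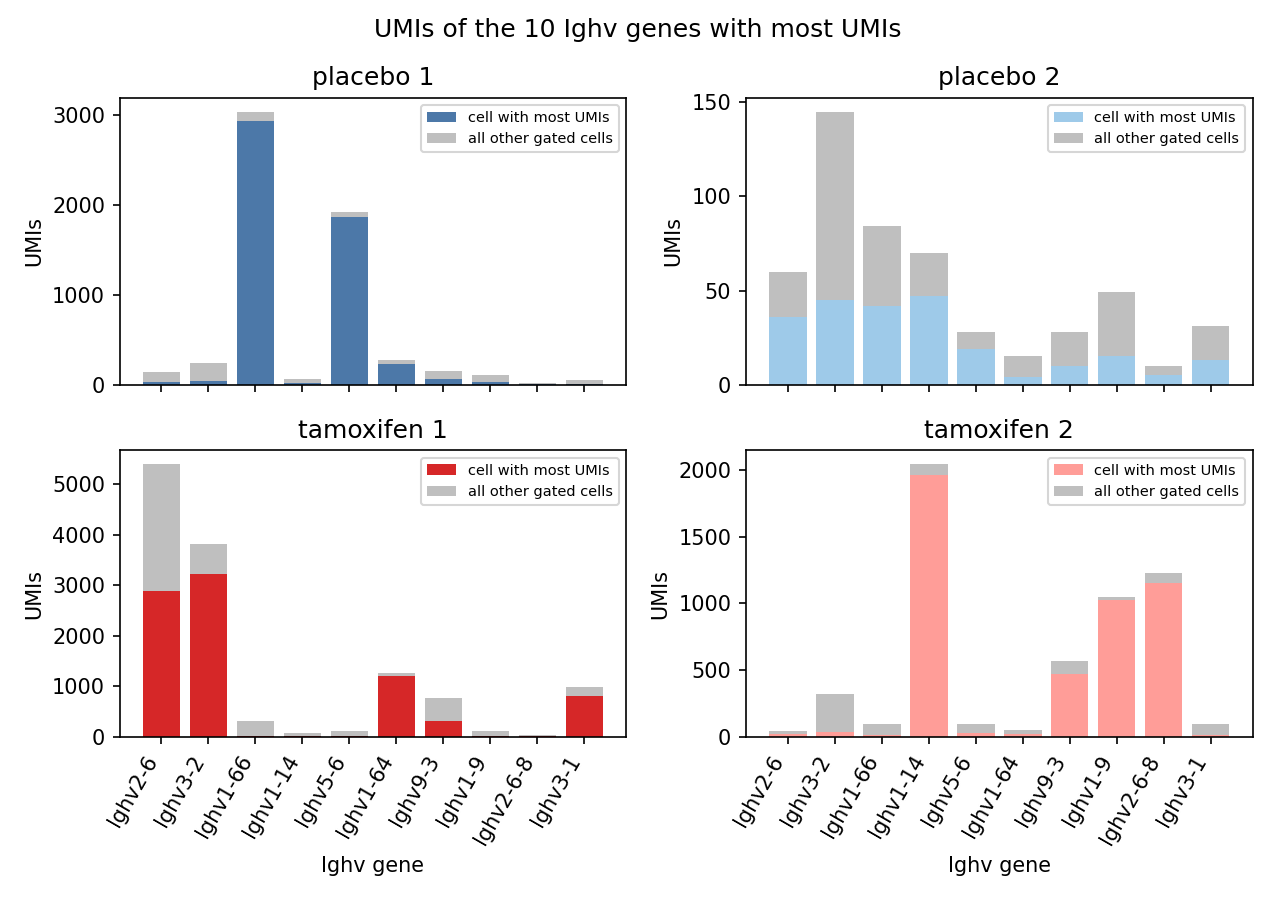
UMIs in gated cells (vertical, a separate linear scale per panel) of the 10 Ighv genes with most UMIs (horizontal), 1 panel per mouse, with the richest cell for that gene and mouse in colour and all other gated cells in grey. In placebo 1, tamoxifen 1 and tamoxifen 2 the tall bars are mostly 1 cell, such as 2929 of 3035 UMIs of Ighv1-66 in placebo 1, and in placebo 2 no bar passes 145 UMIs.

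Of the 75 genes with at least 50 UMIs over the 4 mice, 21 had more than 50% of them in 1 cell and 30 had less than 20%. The highest shares were 92.8% for Ighv6-6 (476 of 513 UMIs, in placebo 1), 92.0% for Ighv1-56 (126 of 137, in tamoxifen 1), 90.9% for Ighv1-83 (884 of 973, in tamoxifen 2), 89.3% for Ighv2-6-8 (1155 of 1294, in tamoxifen 2) and 87.0% for Ighv1-14 (1962 of 2256, in tamoxifen 2). At the other end Ighv8-8, spread over 121 cells, had 3.56% of its 758 UMIs in its richest cell, and Ighv5-17, over 61 cells, 6.07% of 494. Ighv6-6 had no UMI in placebo 2, where 0 of 176 cells were positive, which allows up to 1.70% of cells with a UMI of it and sets no limit on cells expressing it.

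The comparison of tamoxifen with placebo by summed UMIs was fitted with edgeR's quasi-likelihood test over all 10021 genes of the gated cells that passed the count filter, 77 of them Ighv genes. The other 108 Ighv genes, 51 of which had a UMI, were not tested. No gene was called at an adjusted p under 0.05, neither among the 77 Ighv genes nor among all genes (0% called). At an unadjusted p under 0.05 there were 25 of the 77 Ighv genes (15 higher and 10 lower under tamoxifen), or 32.5%, against 5.78% of all genes (1.74% higher and 4.04% lower). The groups did not overlap in 26 of the 77 (33.8%, 18 higher and 8 lower), against 36.8% of all genes (18.1% higher and 18.7% lower). The fitted difference was over 2 on the log2 scale in size in 24 of the 77 (31.2%), against 1.09% of all genes, and its median was 0.49 for the Ighv genes and -0.0067 for all genes. Ighv genes thus had large fitted differences far more often than genes at large, and groups without overlap about as often, and none passed the adjusted threshold. The count filter keeps a gene that is high enough in 1 group alone, so it can select genes by the difference tested. Among the 25, Ighv13-2 was at 0.42 and 0 CPM under placebo against 5.20 and 7.06 under tamoxifen. Ighv1-37 was at 2.95 and 0 against 12.6 and 25.9, and Ighv1-12 at 6.33 and 54.6 against 3.47 and 3.53. The shares of 32.5% and 31.2% were not recounted without such genes. DESeq2 called 2 Ighv genes, Ighv9-3 and Ighv1-39, with 20 calls over all genes (0.216%). Without the filter on low counts edgeR called 39 of 128 Ighv genes and 489 of all genes (2.82%). With 1 mouse left out it called 4 Ighv genes without placebo 1, 4 without placebo 2, 3 without tamoxifen 1 and 1 without tamoxifen 2, with 61, 19, 4 and 1 calls over all genes (0.595%, 0.176%, 0.0381% and 0.00909%).

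Counting cells in place of UMIs also changed which Ighv genes could be tested. With the number of cells that had a UMI of each gene summed per mouse, only 25 of the 77 Ighv genes passed the count filter. None of the 25 had an unadjusted p under 0.05 in edgeR, against 5.64% of all genes. So few genes cannot tell these shares apart. Their median log2 difference was -0.12. The fits that follow also tested other sets of Ighv genes than the main fit. With the richest cell left out for every gene in every mouse, 14 of 59 (23.7%) were under 0.05, against 5.12% of all genes. Without the secreting range it was 17 of 74 (23.0%), against 6.17%. With both Cd79a and Ms4a1 required it was 9 of 67 (13.4%), against 3.86%. No adjusted call was made by edgeR in any of these 4 fits.

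**Figure D5:**
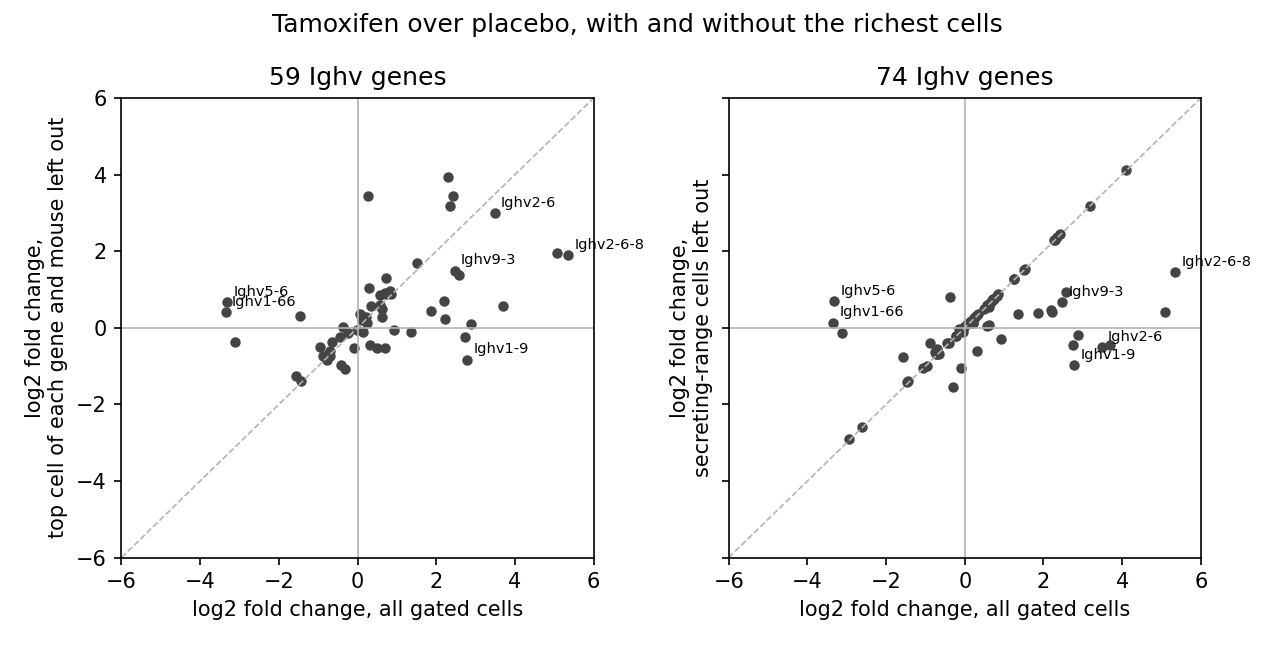
Log2 difference of tamoxifen over placebo for each tested Ighv gene in all gated cells (horizontal) against the same after leaving out the richest cell of each gene and mouse (left, vertical) or the secreting range (right, vertical), with the dashed line marking equal values. Ighv1-66 lies at -3.35 on the horizontal axis and at 0.41 and 0.13 on the vertical axes, and on the right many genes stay on the dashed line.

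Of the 3 Ighv genes with the highest and the 3 with the lowest fitted differences, 5 had most of their UMIs in 1 cell, and Ighv13-2 did not. Ighv2-6-8 had 19, 10, 40 and 1225 UMIs in placebo 1, placebo 2, tamoxifen 1 and tamoxifen 2, a log2 difference of 5.35 ± 1.90 (SE), and an adjusted p of 0.824 in edgeR. Only tamoxifen 2 was high, by 1 cell with 1155 UMIs. Ighv1-83 had 17, 9, 42 and 905 UMIs, a log2 difference of 5.08 ± 1.80 (SE) and the same adjusted p of 0.824 in edgeR. Ighv13-2 had 1, 0, 21 and 12 UMIs in 1, 0, 4 and 1 cells. Its fitted difference of 4.10 ± 0.81 (SE, edgeR adjusted p = 0.591) rests on 1 UMI in the placebo mice. Both tamoxifen mice were higher for Ighv13-2, on 34 UMIs in all. On the other side, Ighv6-6 had 485, 0, 18 and 10 UMIs. Its fitted difference of -4.42 ± 1.64 (SE, edgeR adjusted p = 0.824) rests on placebo 1, where 1 cell held 476 of the 485. Ighv1-66 had a log2 difference of -3.35 ± 1.14 (SE, edgeR adjusted p = 0.821), which was 0.41 with the richest cells left out and 0.37 by cells. Ighv5-6 had -3.31 ± 1.33 (SE, edgeR adjusted p = 0.824), which was 0.68 with the richest cells left out and -0.36 by cells. Both are genes in which 1 cell of placebo 1 stood apart.

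The smallest adjusted p of any Ighv gene belonged to Ighv1-39, which is named here because of that value. It had 16 UMIs in 5 cells of placebo 1, 5 in 2 cells of placebo 2, 119 in 29 cells of tamoxifen 1 and 64 in 7 cells of tamoxifen 2. In CPM over gated cells this was 6.75, 5.06, 29.5 and 37.7, both tamoxifen mice above both placebo mice. The log2 difference was 2.42 ± 0.29 (SE, edgeR adjusted p = 0.461), and 3.43 with the richest cell of each mouse left out. By assigned cells it had 1, 1, 6 and 0, with the groups overlapping. Ighv9-3 had 148, 28, 764 and 567 UMIs in 31, 4, 37 and 19 cells, a log2 difference of 2.47 ± 0.44 (SE, edgeR adjusted p = 0.575), of 0.66 without the secreting range and of -0.029 by cells. Its assigned cells were 3.08%, 2.67%, 3.77% and 5.26% of the mouse's total. Among the widely used genes Ighv8-12 differed by 0.17 ± 0.26 (SE, edgeR adjusted p = 0.957), Ighv8-8 by 0.57 ± 0.53 (SE, edgeR adjusted p = 0.890) and Ighv5-17 by 0.72 ± 0.25 (SE, edgeR adjusted p = 0.824).

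Many cells had counts on more than 1 gene of the same family. Among 190 gated cells with at least 20 Ighv UMIs, the lead gene held under 80% in 68 (35.8%), while the lead family held at least 80% in 183 (96.3%). In 61 of the 68 the second gene belonged to the family of the lead, at a median reference identity of 93.2% (86.0 to 96.9%), where all 4764 pairs within families had a median of 82.1%. Counts of single genes within such pairs are uncertain. Whether reads of 1 transcript were divided between the genes of a pair was not tested.

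Ighv3-1 and Ighv3-2, printed above, were the most frequent such pair, as the 2 leading genes in 11 cells. All 26 cells led by Ighv3-2 with at least 20 Ighv UMIs had UMIs of Ighv3-1, at 5.00 to 40.9% of the cell's Ighv UMIs and a median of 14.3%. The richest tamoxifen 1 cell held 3222 UMIs of Ighv3-2 and 801 of Ighv3-1. No cell was assigned to Ighv3-1, although 118 gated cells had a UMI of it. Ighv1-14 and Ighv1-83 led together in 5 cells, and the richest tamoxifen 2 cell held 1962 UMIs of Ighv1-14 and 884 of Ighv1-83. By contrast the 9 cells led by Ighv2-6 with at least 20 Ighv UMIs had no UMI of Ighv2-6-8, which is 94.9% identical to it.

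Genes annotated as pseudogenes took part in this. They held 74 of the 885 assigned cells, on 7 genes, among them Ighv3-2 with 38, Ighv1-14 with 18 and Ighv4-2 with 12. By assigned cells their share was 6.92% in placebo 1, 17.3% in placebo 2, 7.54% in tamoxifen 1 and 8.55% in tamoxifen 2, highest in placebo 2. By UMIs their share was 4.96% in placebo 1, 18.8% in placebo 2, 20.9% in tamoxifen 1 and 36.2% in tamoxifen 2. In both tamoxifen mice 1 cell held most of these UMIs. In tamoxifen 1 it had 3222 UMIs of Ighv3-2, of 4361 on pseudogenes. In tamoxifen 2 it had 1962 of Ighv1-14 and 884 of Ighv1-83, of 3522. Placebo 1 had 522 in its gated cells, and a cell with 928 UMIs of Ighv3-2 was kept out of its gate by Cd3e. Ighv1-14 has a stop at codon 5 in the reference letters above, and its UMIs included 1962 in 1 Ighm secreting cell. Whether FVB/NJ alleles of these genes are intact, or reads of other FVB/NJ segments were counted on them, was not tested.

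The B-1 segments paired with their known light chains. Of the 11 cells assigned to Ighv11-2, 10 had Igkv14-126 as the lead light chain gene, against 4 of the 874 other assigned cells (0.458%). By mouse it was 2 of 2 in placebo 1, 3 of 3 in placebo 2, 3 of 4 in tamoxifen 1 and 2 of 2 in tamoxifen 2. Of the 4 cells assigned to Ighv12-3, 3 had Igkv4-91, against 8 of the 881 others (0.908%). Bhlhe41, a transcription factor of B-1 cells, had a UMI in 6 of the 11 Ighv11-2 cells and 5.15% of the others, and Zbtb32 in 7 of the 11 and 6.98%. The other 3 B-1 and marginal zone genes counted did not stand out in this way, with Cd9 in 2 of the 11 and 8.35% of the others, Cd5 in 1 of the 11 and 1.37%, and Spn in 0 of the 11 and 2.40%. The 15 cells of both segments were deeper, at a median of 9302 UMIs against 3249, so these shares are not at equal depth.

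Ighv11 and Ighv12 were highest in placebo 2. Ighv11 took 0.769% of assigned cells in placebo 1, 4.00% in placebo 2, 1.01% in tamoxifen 1 and 1.32% in tamoxifen 2. Ighv12 took 0.385%, 5.33%, 0% and 0.658%. The highest value in both families was that of the mouse with the fewest gated cells, on 3 and 4 assigned cells, and the groups overlapped by these shares. With cells assigned by family they overlapped in Ighv11 but not in Ighv12, at 0.434%, 4.00%, 0.143% and 0.373%. By UMIs they overlapped in neither, and both tamoxifen mice were lower. Ighv11 took 0.693%, 4.68%, 0.287% and 0.513% of Ighv UMIs in the same order, and Ighv12 took 0.180%, 5.28%, 0.0670% and 0.0205%. Ighv11-2 had 72, 85, 60 and 47 UMIs, or 30.4, 86.0, 14.9 and 27.7 CPM, with both tamoxifen mice below both placebo mice and a log2 difference of -1.44 ± 0.56 (SE, edgeR adjusted p = 0.824).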

How the data were processed

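Per the file headers and labels, the authors deposited raw UMI counts per gene and barcode from the 10x 5' assay, 1 filtered matrix per mouse. Cell Ranger is given as version 5.0.0 per the file headers and as 8.0.1, with mm10, per the submitters' processing notes. Cells needed at least 250 genes, at most 15% mitochondrial UMIs and a Scrublet score under 0.25 (scanpy 1.11.5). Counts of gated cells were summed per mouse and tested with edgeR 4.0.16 (quasi-likelihood, TMM, filterByExpr, Benjamini-Hochberg over all genes), with DESeq2 1.42.0 as an alternative, in R 4.3.3. The edgeR step was tested on simulated data and recovered 90.5% of 200 genes changed 4-fold, with 14 false calls among 10021 genes. Those counts were drawn with the spread between mice fitted as a trend over all genes. Genes with most counts in 1 cell were not simulated, such as Ighv2-6-8 with 40 UMIs in tamoxifen 1 and 1225 in tamoxifen 2. The 90.5% is therefore not a recovery for such Ighv genes. Single values were compared by exact permutation over mice (scipy 1.17.1). Positions and sequences are from GENCODE M21. Of the gene symbols 2 occur on 2 gene IDs each, with 0 UMIs. Same-numbered mice were not treated as pairs. Segments named with values are the 10 with most assigned cells, the 10 with most UMIs, the 5 with the highest share in 1 cell and the 3 highest and 3 lowest fitted differences. Members, lists and tests were chosen with earlier results of these data known.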

Additional observations from a re-analysis of the deposited data

How the results depend on the processing

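With 2 mice a group, no value compared by the exact permutation test can reach a p under 0.333, and placebo 2, with 176 gated cells, limits every share. Read as a count of calls, 0 Ighv genes in edgeR became 39 without the count filter, 2 in DESeq2 and 1 to 4 with a mouse left out, and 0 genes of all became 489, 20 and 1 to 61. Without placebo 1 the Ighv calls were Ighv7-3, Ighv12-3, Ighv6-3 and Ighv1-12, without placebo 2 Ighv5-6, Ighv6-6, Ighv1-66 and Ighv1-74, without tamoxifen 1 Ighv2-6-8, Ighv1-9 and Ighv1-83, and without tamoxifen 2 Ighv2-6, all named after their values were seen. The lone mouse of a group is then assumed to vary like the other group. With replicate number as a block 0 Ighv genes and 5 of all genes were called. The numbers were not used as pairs. Deviations of same-numbered mice from their group means correlated at 0.0758 across genes. With 2 mice a group the deviations mirror each other, so both numbers give the same value, which cannot decide on pairing. For 18 named segments and 257 alternatives, 207 kept direction and side of the threshold, 23 came past it and 27 changed direction. The changes of direction of the log2 difference were as follows. By cells with a UMI it was 0.37 for Ighv1-66, -0.029 for Ighv9-3, -0.35 for Ighv2-9, -0.025 for Ighv5-17, -0.55 for Ighv2-6 and -0.31 for Ighv1-64. With the richest cells left out it was 0.41 for Ighv1-66, -0.83 for Ighv1-9, 0.68 for Ighv5-6 and -0.11 for Ighv1-64. Without the secreting range it was 0.13 for Ighv1-66, -0.98 for Ighv1-9, -0.51 for Ighv2-6, -0.46 for Ighv1-14 and 0.71 for Ighv5-6. With both gate genes required it was -1.14 for Ighv1-9, -0.72 for Ighv1-14 and 0.69 for Ighv5-6. With a mouse left out it ranged from -0.012 to 1.93 for Ighv8-8, -0.53 to 3.74 for Ighv1-9, -0.11 to 0.46 for Ighv8-12, -1.16 to 4.48 for Ighv2-6, -1.18 to 4.69 for Ighv1-14, -4.24 to 0.57 for Ighv5-6, -1.04 to 3.54 for Ighv1-64 and -5.34 to 6.52 for Ighv6-6, the last against a placebo mouse at 0. As tamoxifen minus placebo in percentage points, the share of the 10 richest cells changed from 20.1 to -6.03 without the secreting range. The Ighv1 share changed from -0.289 to 0.692 with doublets kept, to 0.692 with all barcodes and to 0.920 with 1 UMI enough to assign, and ranged from -2.67 to 2.10 with a mouse left out. The Ighv2 and Ighv5 share changed from 0.248 to -0.576, -0.576 and -2.62 in the same order and to -0.0196 when cells were assigned by family, an alternative added after seeing the data, and ranged from -2.36 to 2.85 with a mouse left out. The difference in genes at equal cells ranged from -1.11 to 1.69 with a mouse left out. The cause of these changes was not tested, other than that the richest and secreting cells are removed by construction in their alternatives. The Ighv share of UMIs and the share of cells with an Ighv UMI kept their direction in every alternative run, but the former difference, 0.203 percentage points, was 0.337 without placebo 1 and 0.0685 without placebo 2, and 0.103 with both gate genes required and 0.0128 without the secreting range.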

Other observations

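Ighv UMIs outside the gate numbered 1633 in placebo 1, 99 in placebo 2, 1219 in tamoxifen 1 and 200 in tamoxifen 2. A placebo 1 cell with 1239 Ighv UMIs, led by Ighv3-2 with 928 and Ighv3-1 with 225, with Igha and Igkv3-7, had 11 UMIs of Cd79a and was kept out by 5 UMIs of Cd3e. It would have been the third richest cell of that mouse. In tamoxifen 1, barcodes with 296, 244 and 132 Ighv UMIs were led by Ighv2-6, Ighv4-2 and Ighv1-62-1, and each had 1056 to 1413 UMIs in all and 32 to 42 of Jchain. In tamoxifen 2 the richest was a cell with 42, led by Ighv11-2 with Igkv14-126, which had 7 UMIs of Cd3e. In placebo 2 no barcode outside the gate had over 22, and that one had a doublet score at or over the threshold. By position along the locus, the 61 segments nearest to the J segments took 45.0%, 48.0%, 41.0% and 46.1% of assigned cells in placebo 1, placebo 2, tamoxifen 1 and tamoxifen 2, the middle 62 took 21.9%, 24.0%, 24.1% and 21.1%, and the farthest 62 took 33.1%, 28.0%, 34.9% and 32.9%. The middle stretch was lowest in all 4 mice and the nearest one highest. The nearest, middle and farthest stretches held 20, 29 and 21 annotated pseudogenes, and 30, 24 and 31 segments with an assigned cell. The part of these in the shares was not tested.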
